A study of Mus musculus with 150 samples.

Results

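On mouse chromosome 8, 1854 positions outside 41 to 46 Mb differed in replication timing between the svim and cast alleles of hybrid embryonic stem cells. They were chosen from the values themselves: the mean over 6 clones of the svim score minus the cast score was at least 1 or at most -1, and all 6 clones had the same sign. Of 25880 positions, spaced 5 kb apart, 25216 held a value in all 12 columns and 24222 of these lay outside 41 to 46 Mb. The members were 1070 positions where svim was earlier, 4.42 percent of the 24222, and 784 where cast was earlier, 3.24 percent. Because the difference between alleles chose them, its size is given as a description, without a test.

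The series measured replication timing by Repli-seq in 150 samples, which pair into 75 profiles. Cells were given BrdU for 2 hours, sorted by DNA content into an early and a late fraction of S phase, and BrdU-labelled DNA was pulled down with an antibody and sequenced. The profiles used here come from 12 samples, an early and a late fraction of each of 6 cas/129 hybrid mouse embryonic stem cell clones, grown on gelatin with 2i plus LIF. In such hybrids every chromosome has a copy from each parental strain, and reads that cover strain differences are assigned to svim (the 129 strain) or cast (the castaneus strain). The 6 clones form 3 genotypes of 2 clones each, all with CRISPR deletions on chromosome 8. RexTrimdel clones D3 and D8 lack both 43176771 to 43181949 and 43302260 to 43332339, Trimdel clones D9 and E9 lack the first interval, and Rex1del clones D1 and E3 lack the second. All 6 clones therefore carry a deletion inside the stretch left out of the search, the labels do not say on which allele, and no unedited profile of chromosome 8 is listed. Each clone gave 1 profile per allele, so the spread given is that between clones.

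Replication timing is the order in which parts of the genome are copied during S phase. It changes in large domains: early domains tend to hold active, gene-rich chromatin, late domains tend to be gene-poor, and the slopes between them are called timing transition regions. When the same stretch is copied at different times on the parental chromosomes, the alleles are said to replicate asynchronously. The score used here is higher where replication is earlier. In 12 of 12 columns the mean of 8 genes that included Ctcf and Junb was above that of 6 long genes that included Csmd1 and Cdh8. The lists were compared by their means, and the highest score in the late list was 1.46 on svim and 1.30 on cast. Columns ran between -4.21 and 4.77, and every column had an interquartile range of 4.60. Read depth is unknown.

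Joining neighbours up to 50 kb apart gave 16 regions where svim was earlier and 11 where cast was earlier. The svim-earlier regions covered 5.35 Mb, with lengths between 15 and 1365 kb and a median of 245 kb. The cast-earlier regions covered 3.92 Mb, with lengths between 55 and 770 kb and a median of 315 kb. No position within a region or within 250 kb of one was blank. The highest mean difference at a single position was 2.52 for svim-earlier and -1.98 for cast-earlier positions. Just inside the threshold, with a mean difference between 1 and 1.05 in size, lay 106 svim-earlier and 60 cast-earlier positions. Just outside it, between 0.95 and 1, lay 101 and 107. A further 41 positions reached 1 towards svim but had mixed signs among clones, and 0 did so towards cast. Within 41 to 46 Mb, 88 positions would have met the rule towards svim and 0 towards cast.

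The directions were spread unevenly along the chromosome. Svim-earlier positions made up 12 percent of the positions between 80 and 100 Mb and 6.73 percent of those between 100 and 120 Mb. Between 40 and 60 Mb and beyond 120 Mb there were 0. The shares between 40 and 60 Mb leave out 41 to 46 Mb, where 88 positions would have met the rule towards svim and 0 towards cast. Cast-earlier positions made up 8.17 percent of those between 40 and 60 Mb and 4.77 percent of those beyond 120 Mb, against 0.275 percent between 100 and 120 Mb. Pairs and runs of neighbouring regions shared a direction. The regions at 88.715, 89.145, 89.335 and 89.710 Mb were all svim-earlier, as were those at 103.995 and 104.370 Mb, and those at 46.290 and 46.625 Mb were both cast-earlier. The regions at 46.290 and 46.625 Mb begin shortly beyond 46 Mb, the limit of the search, while the deletions end at 43332339. That pair, the pair at 103.995 and 104.370 Mb and the pair at 89.145 and 89.335 Mb each lie in 1 wider stretch. Throughout such a stretch all 6 clones had the same sign and the mean difference was at least 0.5 in size. The wider stretch of the regions at 46.290 and 46.625 Mb starts at 45765000, inside the part left out of the search. The threshold of 1 cut these stretches into regions, so the shared direction within each pair follows from the cut.

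Reference promoters of 4 genes inside the regions are shown because they mark the starts of genes that lie at the largest or longest differences: Dynlrb2 in the region of largest difference, Hhip in the longest, Hpgd in the largest cast-earlier one, and Ces1g in the carboxylesterase cluster. Each runs from 250 bases before to 50 bases after the annotated start, 5' to 3' on the gene's strand, from RefSeq (GRCm38.p6, the mm10 build). Capitals mark CG dinucleotides, the sites of DNA methylation in mammals. They are sequences of the reference genome, not of the svim or cast chromosome. Dynlrb2 is at chr8:116504765-116505064 on the plus strand, Hhip at chr8:80057959-80058258 on the minus strand, Hpgd at chr8:56294302-56294601 on the plus strand and Ces1g at chr8:93337160-93337459 on the minus strand.
Dynlrb2: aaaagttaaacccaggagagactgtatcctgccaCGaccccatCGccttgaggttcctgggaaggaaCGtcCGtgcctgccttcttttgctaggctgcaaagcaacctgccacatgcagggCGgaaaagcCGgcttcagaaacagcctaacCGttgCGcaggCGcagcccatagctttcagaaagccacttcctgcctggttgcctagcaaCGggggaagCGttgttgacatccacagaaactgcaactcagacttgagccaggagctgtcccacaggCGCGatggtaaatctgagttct
Hhip: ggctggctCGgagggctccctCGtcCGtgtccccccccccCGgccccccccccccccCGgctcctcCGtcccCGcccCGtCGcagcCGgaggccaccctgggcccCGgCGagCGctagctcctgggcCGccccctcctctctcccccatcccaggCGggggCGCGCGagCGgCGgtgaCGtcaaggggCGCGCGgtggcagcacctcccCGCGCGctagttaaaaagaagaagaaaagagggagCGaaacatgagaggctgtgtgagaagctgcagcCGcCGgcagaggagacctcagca
Hpgd: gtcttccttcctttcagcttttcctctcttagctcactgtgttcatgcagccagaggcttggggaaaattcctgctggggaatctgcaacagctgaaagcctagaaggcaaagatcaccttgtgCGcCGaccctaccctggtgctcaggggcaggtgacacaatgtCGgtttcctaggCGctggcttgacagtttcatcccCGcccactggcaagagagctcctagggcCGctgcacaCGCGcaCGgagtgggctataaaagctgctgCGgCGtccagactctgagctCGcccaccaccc
Ces1g: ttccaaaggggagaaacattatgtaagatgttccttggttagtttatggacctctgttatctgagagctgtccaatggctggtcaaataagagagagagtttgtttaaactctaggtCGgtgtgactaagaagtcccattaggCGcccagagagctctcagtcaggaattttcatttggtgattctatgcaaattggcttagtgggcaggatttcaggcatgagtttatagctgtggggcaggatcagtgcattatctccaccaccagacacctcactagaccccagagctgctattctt

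The Hhip window holds 30 CG dinucleotides and has a GC content of 73.7 percent. Dynlrb2 holds 13, Hpgd 12 and Ces1g 2, with GC contents of 55.3, 58.0 and 45.0 percent. The motif TATAAA, searched on both strands, is present in the Hpgd and Ces1g windows and absent from the Dynlrb2 and Hhip windows. At the start of Dynlrb2 the mean score was 2.27 on svim and 0.13 on cast. At the start of Hhip it was 0.26 on svim and -1.30 on cast. Hpgd had -0.10 on svim and 1.65 on cast, and Ces1g had -1.67 on svim and -0.20 on cast. The later allele of Dynlrb2 thus started close to the middle of the score range, while both alleles of Ces1g started below it.

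The region with the largest difference lies at 116.075 to 116.670 Mb, is 600 kb long and svim-earlier. It holds Dynlrb2, which encodes a light chain of the microtubule motor dynein, and part of Cdyl2, which encodes a chromodomain protein. The svim score of the 6 clones was -0.51 at the lowest, 0.84 at the median and 1.07 at the highest, against -2.33, -1.30 and -0.72 on cast. The ranges did not overlap. The difference averaged 1.96 ± 0.22 (SD, n = 6) and lay between 1.80 and 2.31 in every clone. On both alleles this is a slope between a late and an early domain: the mean score of both alleles was -3.07 over the 250 kb on the left and 2.73 over the 250 kb on the right. The svim score crossed 0 at 116312673 and the cast score at 116493329, 181 kb further along, and in single clones this distance was between 178 and 205 kb.

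The longest region, at 79.375 to 80.735 Mb, is also svim-earlier and spans 1365 kb. It overlaps 9 protein-coding genes, among them Smad1, a transducer of BMP signals, Hhip, a membrane protein that binds Hedgehog ligands, Smarca5, an ATPase of ISWI chromatin remodellers, and Anapc10, a subunit of the anaphase-promoting complex. The svim score was 0.68 at the lowest, 1.48 at the median and 1.83 at the highest clone, against -0.58, 0.02 and 0.68 on cast. The ranges touched at the second decimal without overlapping. The difference averaged 1.36 ± 0.13 (SD, n = 6). In this region both alleles form a valley between early flanks, where both alleles together averaged 1.69 on the left and 2.04 on the right. Hhip lies at the middle of the region, on the way down to the lowest point, with 0.60 ± 0.89 on svim and -1.06 ± 0.77 on cast (SD, n = 6). Smarca5, on its right shoulder, had 2.74 ± 0.46 on svim and 1.65 ± 0.45 on cast. The difference in Hhip was 1.65 ± 0.28, and that in Smarca5 was 1.09 ± 0.67 (SD, n = 6).

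The region at 14.860 to 15.495 Mb (640 kb) holds Cln8, an endoplasmic reticulum protein mutated in a neuronal lipid storage disease, Arhgef10, Kbtbd11, a kelch-repeat protein, and Myom2, a protein of the sarcomere. Its svim score was between -0.71 and 0.79 in the 6 clones with a median of -0.03, against -1.88 to -1.20 with a median of -1.37 on cast. This was the most variable of the long regions: the difference averaged 1.45 ± 0.50 (SD, n = 6), with 0.66 in Trimdel E9 and 1.99 in Rex1del E3.

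The region at 82.600 to 83.270 Mb (675 kb) holds Zfp330, a zinc finger protein, Rnf150, a RING finger protein, and most of Tbc1d9, which has a domain that acts on Rab GTPases. The svim score was between 0.11 and 1.03 with a median of 0.66, against -1.17 to -0.23 with a median of -0.82 on cast. Both alleles together averaged -2.41 on its left and 2.12 on its right, and the gene scores follow this slope: Zfp330 had -0.17 ± 0.47 on svim and -2.03 ± 0.46 on cast, and Tbc1d9 had 2.22 ± 0.18 on svim and 1.17 ± 0.31 on cast (SD, n = 6).

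The region at 104.370 to 104.775 Mb (410 kb) overlaps the most protein-coding genes of the 27 regions, 10. They include Dync1li2, a light intermediate chain of dynein, Terb1, which ties telomeres to the nuclear envelope in meiosis, Nae1, a subunit of the NEDD8-activating enzyme, Car7, a carbonic anhydrase, Cdh16, a cadherin of the kidney, and Ces2a, a carboxylesterase. The svim score was between 1.61 and 2.24 with a median of 1.92, against 0.46 to 1.04 with a median of 0.61 on cast, so both alleles scored above 0 in all 6 clones. Both alleles together averaged 1.30 in the region, against 0.68 on its left and 0.87 on its right. Differences in the genes lay between 1.00 ± 0.27 in Cmtm4 and 1.56 ± 0.11 in Ciao2b, an iron-sulfur cluster assembly protein (SD, n = 6). Its neighbour at 103.995 to 104.310 Mb overlaps 6 further genes, among them Cdh5, the cadherin of endothelial junctions, and Tk2, the mitochondrial thymidine kinase. Tk2 had 1.34 ± 0.27 on svim and -0.01 ± 0.25 on cast (SD, n = 6).

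**Figure D1:**
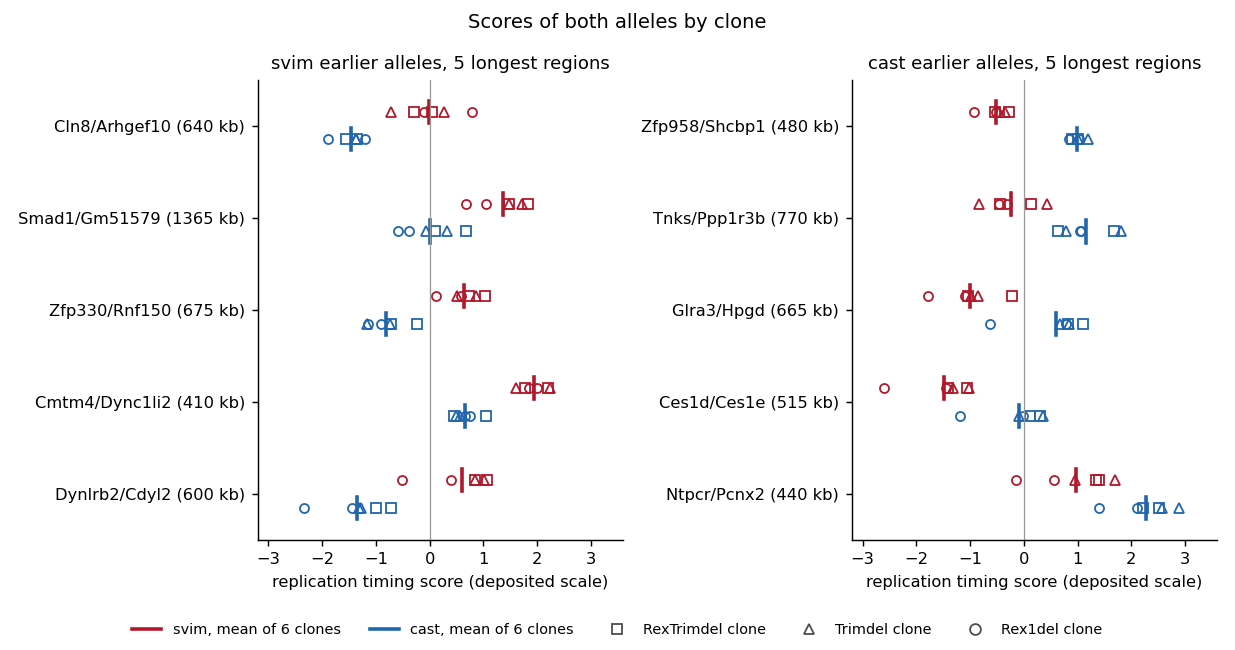
Mean replication timing score of the svim (red) and cast (blue) allele in the 5 longest regions of each direction, named by their leftmost genes and length; each open symbol is 1 clone, by genotype, and the bar is the mean of 6 clones. In the Dynlrb2/Cdyl2 region svim lies between -0.51 and 1.07 and cast between -2.33 and -0.72; in the Zfp958/Shcbp1 region svim lies between -0.93 and -0.28 and cast between 0.84 and 1.18.

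Among the cast-earlier regions the largest difference was at 55.955 to 56.615 Mb (665 kb). It holds part of Glra3, a subunit of the glycine receptor, and Hpgd, the dehydrogenase that inactivates prostaglandins, Cep44, a centrosomal protein, and Fbxo8, an F-box protein. The svim score was -1.79 at the lowest, -1.01 at the median and -0.22 at the highest clone, against -0.63, 0.80 and 1.10 on cast. The ranges overlap through Rex1del D1, which was low on both alleles, with -1.79 on svim and -0.63 on cast. The difference averaged -1.60 ± 0.29 (SD, n = 6). The region is a peak of earlier replication in late surroundings, where both alleles together averaged -2.21 on the left and -2.36 on the right. On svim the peak was low: Hpgd had -0.18 ± 0.61 on svim and 1.58 ± 0.61 on cast (SD, n = 6).

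The longest cast-earlier region, at 34.825 to 35.590 Mb (770 kb), holds Tnks, a tankyrase that modifies telomeric and other proteins with poly(ADP-ribose), Ppp1r3b, which brings a phosphatase to glycogen, Eri1, an exoribonuclease of histone mRNA, and part of Mfhas1. The svim score was -0.84 at the lowest, -0.37 at the median and 0.42 at the highest clone, against 0.63, 1.04 and 1.80 on cast, without overlap. Svim and cast lay on either side of 0 at 77.9 percent of its positions. The distance between the places where svim and cast crossed 0 was 621 kb, the longest measured, and between 189 and 1000 kb in single clones.

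The region at 4.545 to 5.020 Mb (480 kb) holds Zfp958, a zinc finger protein, and Shcbp1, a partner of the adaptor SHC. Its svim score lay between -0.93 and -0.28, against 0.84 to 1.18 on cast, with medians of -0.49 and 1.01 and no overlap. Shcbp1 had -0.47 ± 0.34 on svim and 1.41 ± 0.16 on cast, and its difference of -1.88 ± 0.38 (SD, n = 6) was the largest of any gene in a cast-earlier region.

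The region at 93.165 to 93.675 Mb (515 kb) covers a cluster of carboxylesterases, enzymes that cleave esters of drugs and lipids, many of them made in liver. Its svim score lay between -2.60 and -1.02 with a median of -1.36, against -1.19 to 0.36 with a median of 0.04 on cast. The ranges overlap, again through Rex1del D1, which had -2.60 on svim and -1.19 on cast. Within clones the difference was steady, at -1.39 ± 0.10 (SD, n = 6). The svim scores of the genes ran between -2.05 ± 0.53 in Ces1e and -1.23 ± 0.64 in Ces5a, and the cast scores between -0.93 ± 0.70 in Ces1d and 0.36 ± 0.46 in Ces5a (SD, n = 6).

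The region at 125.685 to 126.120 Mb (440 kb) is on the falling side of an early domain, with a mean score of 2.88 on its left and 0.23 on its right. It holds Ntpcr, a nucleoside triphosphatase, Pcnx2, a pecanex family membrane protein, Map3k21, a mixed-lineage kinase, and Kcnk1, a potassium channel. The svim score lay between -0.15 and 1.70 with a median of 1.15, against 1.39 to 2.89 with a median of 2.37 on cast. Ntpcr was early on both, with 2.20 ± 0.45 on svim and 3.35 ± 0.20 on cast. Kcnk1 was at 0.01 ± 0.83 on svim and 1.57 ± 0.99 on cast (SD, n = 6).

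**Figure D2:**
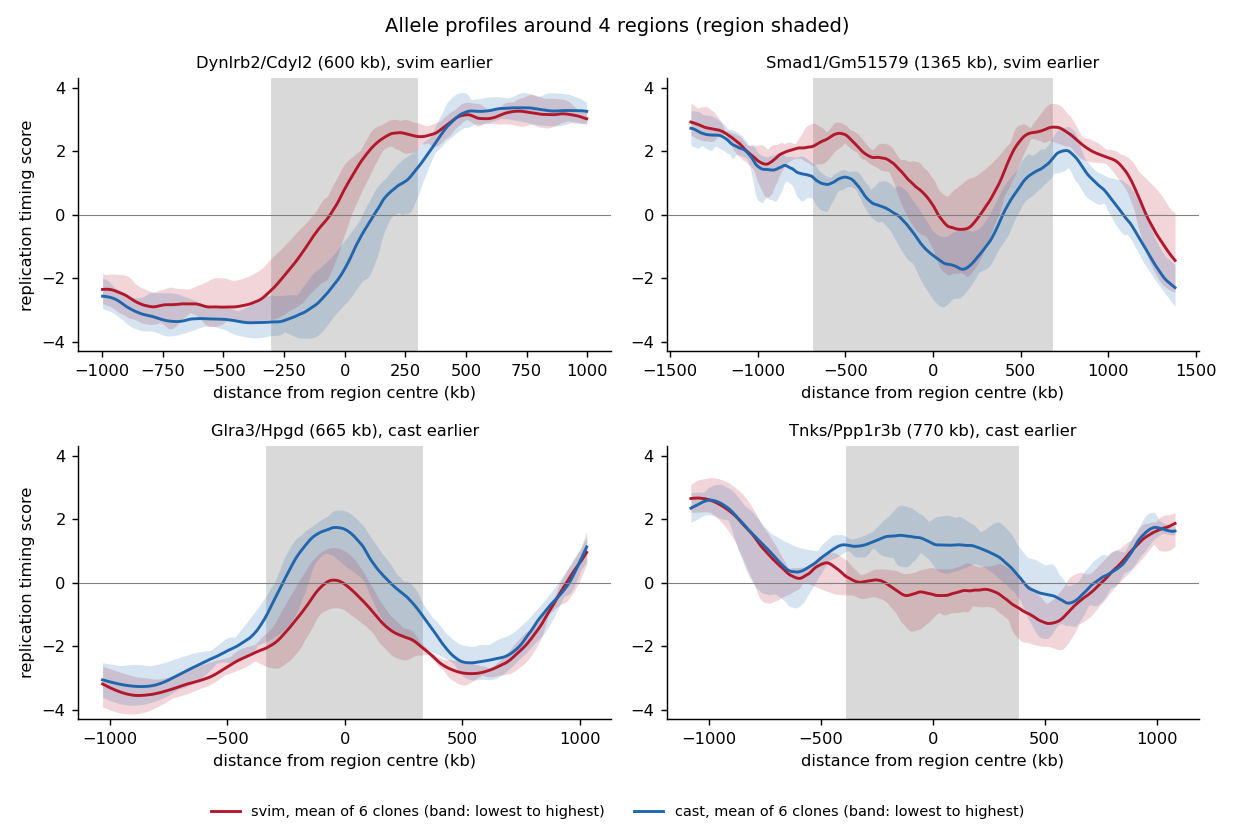
Mean svim (red) and cast (blue) score of 6 clones, with bands from the lowest to the highest clone, against the distance in kb from the centre of 4 regions; the region is shaded. The Dynlrb2/Cdyl2 region is a slope on which the svim curve crosses 0 181 kb before the cast curve, the Smad1 region is a valley, the Glra3/Hpgd region a peak that is lower on svim, and the Tnks region a plateau on which the alleles lie on either side of 0.

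The other 11 svim-earlier regions were between 15 and 320 kb long, and their mean differences lay between 1.00 and 1.36. The other 6 cast-earlier regions were between 55 and 315 kb long, with mean differences between -1.39 and -1.05. Of the genes they overlap, Irf2 encodes an interferon regulatory factor, Cyld a deubiquitinase, Usp38 another, Zfhx3 a homeodomain transcription factor and Helt a neural bHLH factor. Irf2 had -0.36 ± 0.49 on svim and 0.87 ± 0.46 on cast, and Cyld had 2.06 ± 0.38 on svim and 1.04 ± 0.57 on cast (SD, n = 6). Very long genes were only partly covered. Tenm3, a teneurin of neuronal contacts, overlaps the cast-earlier region at 48.870 Mb and had -0.19 ± 0.15 on svim and 0.37 ± 0.21 on cast over its whole body. Palld, an actin-associated protein, overlaps the svim-earlier region at 61.845 Mb and had -0.52 ± 0.41 on svim and -1.03 ± 0.30 on cast. Cdh13, a cadherin anchored by lipid, overlaps the shortest region, of 3 positions, with -1.12 ± 0.53 on svim and -1.30 ± 0.40 on cast (SD, n = 6). Over the 27 regions, the ranges of both alleles over clones were separate in 7 of 16 svim-earlier and 4 of 11 cast-earlier regions. The difference between alleles chose these regions, and the share of separate ranges elsewhere on the chromosome was not measured. The counts are therefore a description. They also set aside that both alleles were scored in the same clone.

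The rule did not use the timing level, the mean score of both alleles, but level and difference come from the same columns. Columns ran between -4.21 and 4.77, so levels near these ends leave less room for a difference of 1. Among svim-earlier positions 44.0 percent had a mean score of both alleles between -1 and 1, and among cast-earlier positions 70.4 percent did, against 13.7 percent of the 22368 other positions. The rest of the chromosome was mostly either late, with 46.7 percent below -1, or early, with 39.5 percent above 1. Of the svim-earlier positions 23.2 percent were late and 32.8 percent early by these limits, and of the cast-earlier positions 11.6 and 18.0 percent. Svim-earlier positions were thus spread over late, middle and early levels, while most cast-earlier positions were in the middle. No member had a mean score below -3 or above 3. The alleles lay on either side of 0 at 31.7 percent of svim-earlier and 52.7 percent of cast-earlier positions, which is a description, since the difference between alleles chose them. Neighbouring positions share a score curve, so these shares carry no test.

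**Figure D3:**
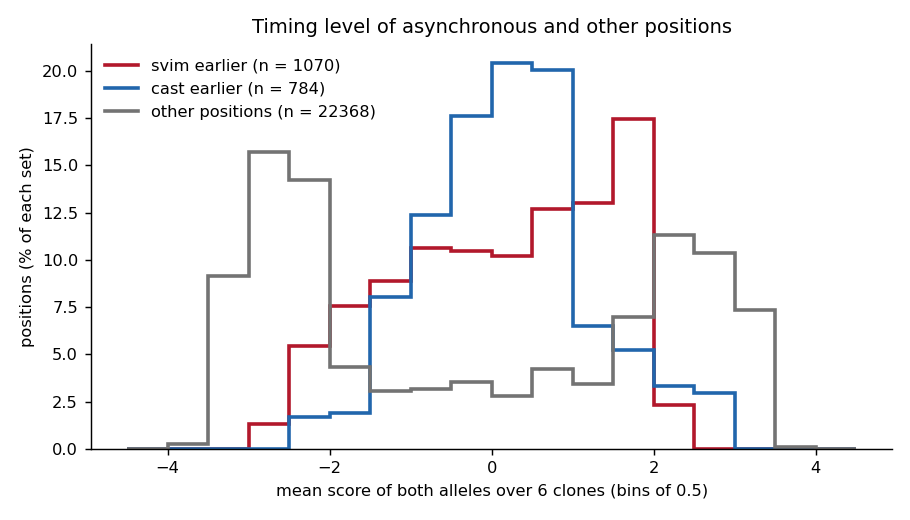
Share of positions (percent of each set) by the mean replication timing score of both alleles over 6 clones, in bins of 0.5, for 1070 svim-earlier positions, 784 cast-earlier positions and 22368 other positions of chromosome 8 outside 41 to 46 Mb. The other positions pile up below -2 and above 2, while 44.0 percent of svim-earlier and 70.4 percent of cast-earlier positions lie between -1 and 1.

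The members also lay on steeper parts of the curve. The median slope of the mean score was 0.61 per 100 kb at svim-earlier and 0.47 at cast-earlier positions, against 0.16 at the others. Slope and difference come from the same curves. A given shift along the chromosome gives a larger difference where the curve is steeper, so this contrast is a description without a test. In 12 regions, not counting the valley and the peak, both alleles crossed 0 within the region or 50 kb of it, and the crossings were a median of 162 kb apart. In the 8 svim-earlier ones the distance was between 76.7 and 243 kb with a median of 138 kb, and in the 4 cast-earlier ones between 91.1 and 621 kb with a median of 251 kb. Only the Smad1 region was lower than both flanks and only the Glra3/Hpgd region higher than both, by at least 0.5. The other 25 regions met neither condition.

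Protein-coding genes were not concentrated in the members. Their bodies covered 28.7 percent of svim-earlier and 32.1 percent of cast-earlier positions, against 42.3 percent of the others. Svim-earlier regions overlapped 38 of the 1043 protein-coding genes of the chromosome, 28 of them wholly inside, and 6 of the 16 regions overlapped none. Cast-earlier regions overlapped 25, of which 20 were wholly inside, and 2 of the 11 overlapped none. Of the gene families with clusters on this chromosome, carboxylesterases had 6 of 19 members in a cast-earlier region (Ces1d to Ces1h and Ces5a) and 1, Ces2a, in a svim-earlier region. Cadherins had 3 of 8 members in svim-earlier regions, namely Cdh5, Cdh13 and Cdh16, and 0 in cast-earlier ones. Cdh13 counts only through a region of 3 positions. Over its whole body the difference lay between -0.11 and 0.42 in the 6 clones, with a mean of 0.18. Cdh5 and Cdh16 lie in neighbouring regions of 1 wider stretch of the same sign. Zinc finger genes of the Zfp series had 1 of 25 in each direction. Of the 53 defensins, 14 ADAM proteases and 4 metallothioneins, 0 overlapped a region. The family totals, like the 1043 genes, include any inside the stretch left out of the search, which could not overlap a region. Outside the regions, the lowest svim minus cast of a gene was -1.95 among ADAM proteases and -2.38 in the Zfp series. These values come from within 41 to 46 Mb, since outside it 0 positions reached -1 without being members. That stretch holds the deletions, and the values are means over 3 genotypes that differ in them. The 0 for defensins depends on Trimdel D9. At 20.220 to 21.250 Mb, which holds 11 defensins, only that clone kept the positions from meeting the rule as svim-earlier.

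RefSeq promoter windows were at hand for 725 of the 1043 genes, 22 of them starting in svim-earlier and 14 in cast-earlier regions. Median GC content was 61.2 percent in svim-earlier and 54.5 percent in cast-earlier regions, against 58.7 percent in 669 other windows outside 41 to 46 Mb. A CG content above 0.6 of that expected from the bases was found in 14 of 22 svim-earlier and 5 of 14 cast-earlier windows, against 56.5 percent of the others. TATAAA was found on either strand in 0 of 22 svim-earlier and 3 of 14 cast-earlier windows, and in 12.7 percent of all 725. Several of these windows share a region, so the counts are not independent.

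The difference was measured in each clone. Over svim-earlier positions the difference averaged 1.48 in RexTrimdel D3, 1.22 in RexTrimdel D8, 1.55 in Trimdel D9, 1.46 in Trimdel E9, 1.33 in Rex1del D1 and 1.32 in Rex1del E3. Over cast-earlier positions it averaged -1.33, -1.22, -1.31, -1.44, -1.49 and -1.50 in the same clones. The rule asks for a common sign in every clone, which limits how far the genotypes can differ at members.

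The genotypes were compared with limma over 2521 windows of 50 kb and the 27 regions, with Benjamini-Hochberg adjustment over all 2548. With 2 clones each, p-values measure only the spread between these clones. For svim minus cast, RexTrimdel minus Rex1del called 0 percent of windows and 0 of 27 regions, and 3 regions had an unadjusted p under 0.05, beside 8.53 percent of windows. RexTrimdel minus Trimdel called 0.674 percent of windows, all of them within 41 to 46 Mb, and 0 of 27 regions, with 0 regions at an unadjusted p under 0.05, beside 5.24 percent of windows. Trimdel minus Rex1del called 0.476 percent of windows, 10 within 41 to 46 Mb and 2 in the Dynlrb2/Cdyl2 region, and 0 of 27 regions, with 4 regions at an unadjusted p under 0.05, beside 10.7 percent of windows. Differences between genotypes in the regions ran between -0.74 and 0.91 for Trimdel minus Rex1del, and their medians were 0.23 in svim-earlier and 0.11 in cast-earlier regions, against 0.08 over all windows.

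From 116200001 to 116250000, svim minus cast was 2.97 in Trimdel D9 and 2.95 in Trimdel E9, against 1.37 in Rex1del D1 and 1.16 in Rex1del E3. From 116250001 to 116300000 it was 3.05 and 3.44 in the Trimdel clones, against 1.52 and 1.46 in the Rex1del clones. The genotypes did not overlap, and the differences of 1.69 and 1.75 each had an adjusted p of 0.0416 by limma. The RexTrimdel clones lay between, with 2.35 and 1.86 in the first window and 2.50 and 1.95 in the second. Over the whole region the difference between these genotypes was 0.40, with an adjusted p of 0.664. Along the region, the greatest difference lay left of the centre in Trimdel clones and right of it in Rex1del clones. Both calls were lost after quantile normalization (adjusted p of 0.0899 and 0.117) and without either Rex1del clone or either RexTrimdel clone, at adjusted p between 0.130 and 0.366. Without Trimdel D9 the first was lost, at an adjusted p of 0.0766.

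**Figure D4:**
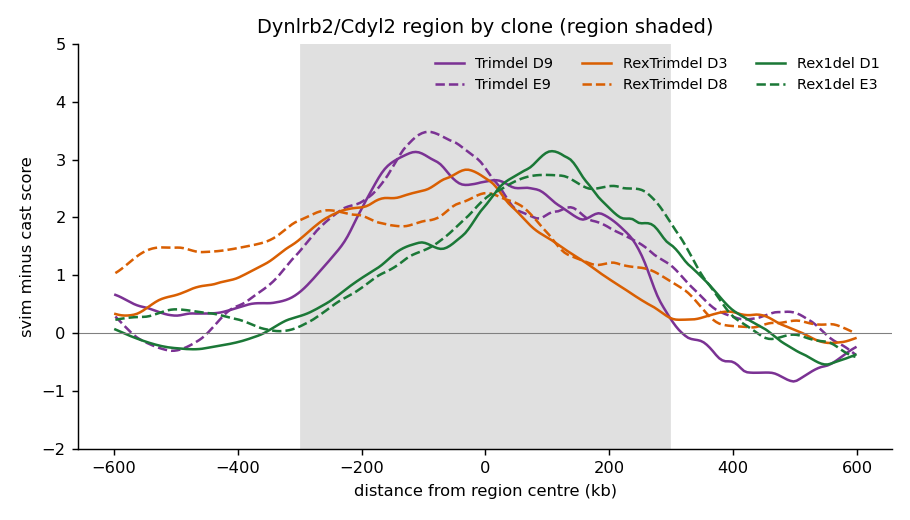
Svim minus cast score along the Dynlrb2/Cdyl2 region, against the distance in kb from its centre, 1 line per clone, coloured by genotype; the region is shaded. Left of the centre the Trimdel clones reach about 3 and the Rex1del clones stay lower, at 1.16 to 1.52 in the 2 called windows, while right of the centre the Rex1del clones are the higher ones.

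For the timing level, the mean of both alleles, RexTrimdel minus Rex1del called 2.94 percent of windows and 1 of 27 regions, and 7 regions had an unadjusted p under 0.05, beside 34.4 percent of windows. The 1 called was the region at 33.020 to 33.125 Mb, which overlaps no protein-coding gene. Its level was 0.25 and 0.84 in the RexTrimdel clones, against -1.18 and -0.88 in the Rex1del clones, a difference of 1.58 ± 0.29 (SE) with an adjusted p of 0.0423 by limma. Over all windows the median of this contrast was -0.31, and the chromosome's median level itself was lowest in Rex1del D1, at -1.19, against -0.56 to -0.07 in the other 5 clones. The call was lost after quantile normalization (adjusted p = 0.0548) and without any 1 of RexTrimdel D3, RexTrimdel D8, Trimdel D9, Trimdel E9 or Rex1del D1, at adjusted p between 0.0634 and 0.313. RexTrimdel minus Trimdel called 0.238 percent of windows and 0 of 27 regions, of which 2 had an unadjusted p under 0.05, beside 5.12 percent of windows. Trimdel minus Rex1del called 2.18 percent of windows and 0 of 27 regions, of which 9 had an unadjusted p under 0.05, beside 25.1 percent of windows.

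Over the 22368 other positions the correlation of svim minus cast between clones lay between -0.06 and 0.52 with a median of 0.39 in 15 pairs, and the clones share the reference and the scaling of the curves. The rule had removed the positions with a large difference of 1 sign in every clone, which limits this correlation. The low values came from 1 stretch in Trimdel D9, chosen here after its values were seen. From 20.220 to 21.250 Mb, over 207 positions, svim was earlier in the other 5 clones, by 0.76 to 2.35, but in Trimdel D9 the difference was -4.62. The svim score of Trimdel D9, -0.42, lay within the range of the others, -0.68 to 0.24. Its cast score was 4.20, against -2.11 to -1.43 in the others. With that clone left out all 207 positions would have met the rule as svim-earlier. Without the stretch and 500 kb on either side the correlations lay between 0.31 and 0.50. The stretch holds 17 protein-coding genes, 11 of them defensins, secreted antimicrobial peptides in tandem arrays. The deposited curves are very smooth there. The median second difference between neighbouring positions was 0.103 thousandths of a score unit, against 1.04 at other positions and 2.18 at members. Of the other positions, which include the stretch itself, 2.05 percent were as smooth. Among the 27 regions the median second difference lay between 0.707 and 3.71, so none was as smooth as the stretch. The lowest was the Zfp958/Shcbp1 region, where 38.1 percent of other positions were as smooth, and the next lowest region had 1.48. How far smoothing over positions with few assigned reads shaped the stretch was not tested.

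**Figure D5:**
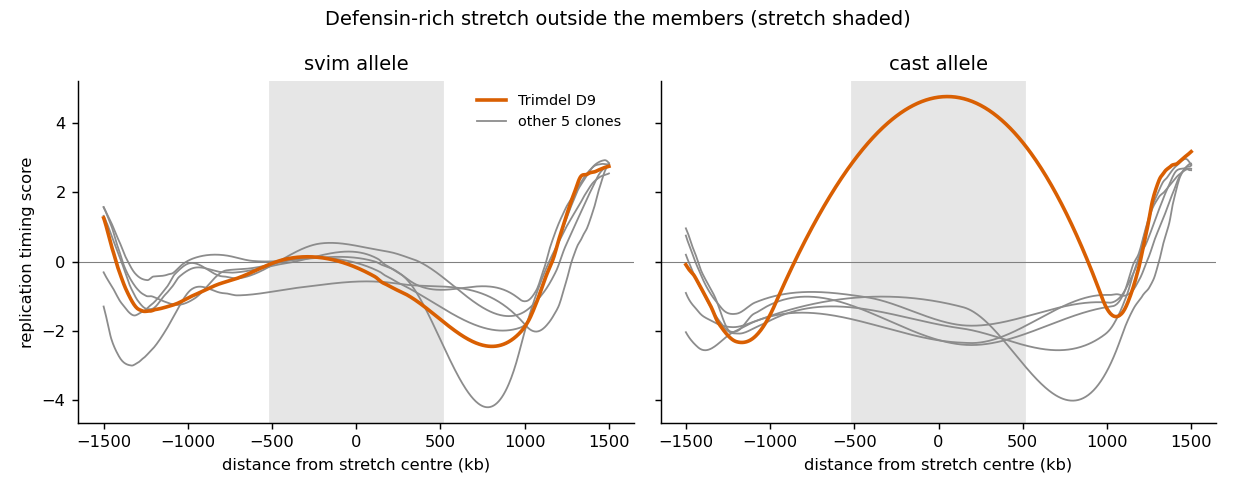
Score of the svim allele (left) and the cast allele (right) around the defensin-rich stretch at 20.220 to 21.250 Mb (shaded), against the distance in kb from its centre, with Trimdel D9 in orange and the other 5 clones in grey. On svim the clones run together, and on cast Trimdel D9 forms a smooth arch with a mean of 4.20 in the stretch, while the others lie between -2.11 and -1.43.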

How the data were processed

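Early and late S-phase fractions of 6 clones were used. The build is mm10, and the tools named are Bowtie2, SAMtools and bedtools, per the submitters' processing notes. Tool versions, smoothing, read filters and the base of any logarithm were not given in the sources available for this work. The authors combined both fractions into a replication timing score per allele, deposited at 5 kb spacing; the name of the deposited table calls it IQR normalized, and the score has both signs, so differences are in score units and are not fold changes. Whether a position marks the start, centre or end of its bin is not stated.

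The members and the gene lists were chosen with earlier results of these data known. Positions were joined up to gaps of 50 kb. Named regions are the 5 with the most positions and the 3 with the largest mean difference of at least 5 positions in each direction; named genes overlap them (at most 25 per direction) or belong to the listed families, and other genes were named after their values were seen. Flanks are the 250 kb on either side. Genes and promoters come from RefSeq GRCm38.p6. Windows of 50 kb with at least 50 percent of positions, without the deletions, and the 27 regions were tested with limma 3.58.1 (lmFit and eBayes) in R 4.3.3, two-sided, all 6 clones in 1 fit, Benjamini-Hochberg threshold 0.05. On simulated data for RexTrimdel minus Rex1del with 2548 features, shifts of svim minus cast by 1, 2, 3 and 4 were recovered in 42, 84, 94 and 98 percent of 50 features each. For the mean of alleles it was 38, 84, 92 and 100 percent. All shifts were present at once, with 2348 features unchanged, and noise was drawn independently for each feature. With fewer true changes, or with neighbouring windows that vary together, recovery may be lower, so these rates do not give the power of the actual contrasts. Alternatives were another threshold on the difference, quantile normalized columns, centred differences, other joining gaps, other eBayes settings, single positions and leaving out each clone. GC content of whole regions needs a genome and was not analysed here, nor were strain variants. Tables were handled in Python 3.11.15 with pandas 2.3.3 and numpy 2.4.6.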

Additional observations from a re-analysis of the deposited data

Results flagged for a closer look

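In 84 sets of 6 values (svim, cast and their difference in the 27 regions and in the stretch at 20.220 Mb), 7 had an end value farther from its neighbour than Dixon's 95 percent critical value for 6 samples allows. Chance flags about 1 in 20 such sets, and the 6 clones belong to 3 genotypes. The svim, cast and difference sets of a region are not independent of each other. In the stretch at 20.220 Mb, Trimdel D9 had a cast score of 4.20, with the nearest other clone at -1.43, and a difference of -4.62, with the nearest at 0.76. That stretch was chosen because Trimdel D9 ran opposite to the other 5 clones, so its 2 values restate the choice and are not to be set against the chance rate. In the Glra3/Hpgd region Rex1del D1 had a cast score of -0.63, with the nearest at 0.67. In the carboxylesterase region Rex1del D1 had -2.60 on svim, with the nearest at -1.45, and -1.19 on cast, with the nearest at -0.10. Rex1del D1 also had the lowest median level over the chromosome, -1.19, against -0.56 to -0.07 in the other 5 clones. RexTrimdel D3 had the lowest difference in the Palld region, 0.75, with the nearest at 1.02. Trimdel E9 had the highest difference in the region at 104.370 Mb, 1.68, with the nearest at 1.31.

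In 2 windows of the Dynlrb2/Cdyl2 region the difference between alleles was larger in Trimdel than in Rex1del clones. It was larger by 1.69 in the window starting at 116200001 and by 1.75 in the next (adjusted p = 0.0416 each, limma). Over the whole region it was larger by 0.40 (adjusted p = 0.664, limma). Both calls were lost after quantile normalization (adjusted p of 0.0899 and 0.117, limma).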

How the results depend on the processing

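With a threshold of 0.75 there were 1617 svim-earlier and 1206 cast-earlier positions, and with 1.5 there were 287 of each, in 7 regions of each direction. Quantile normalization and centring kept 94.6 and 97.0 percent of the svim-earlier and 96.4 and 100 percent of the cast-earlier positions. Without 1 clone at a time the counts were 1054 to 1186 and 749 to 866 positions, in 14 to 18 and 10 to 12 regions. The other joining rules kept the number of regions within 1.5 times.

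Features called for svim minus cast were 10 (RexTrimdel minus Trimdel) and 7 (Trimdel minus Rex1del) after quantile normalization, and 24 in the second of these with trended, robust eBayes. For the mean of alleles, quantile normalization gave 0 for RexTrimdel minus Trimdel and 114 for Trimdel minus Rex1del, and trended, robust eBayes gave 698 for RexTrimdel minus Rex1del, 16 for RexTrimdel minus Trimdel and 430 for Trimdel minus Rex1del. The main counts were 0, 17 and 12 for svim minus cast and 75, 6 and 55 for the mean, in the order RexTrimdel minus Rex1del, RexTrimdel minus Trimdel and Trimdel minus Rex1del. Without 1 clone at a time, the lone clone assumed to vary like the others, they were 0, 5 to 56 and 5 to 62 for the difference, and 0 to 436, 0 to 18 and 0 to 315 for the mean. The highest came without Trimdel E9 (56, 62 and 18) and without Rex1del E3 (436 and 315). For the difference, 5 was reached without RexTrimdel D3 in both comparisons, and without RexTrimdel D8 or Rex1del E3 in Trimdel minus Rex1del. For the mean, RexTrimdel minus Rex1del was 0 without any clone but Rex1del E3, RexTrimdel minus Trimdel was 0 without RexTrimdel D3, RexTrimdel D8 or Trimdel D9, and Trimdel minus Rex1del was 0 without Trimdel D9. The cause was not tested. No paired analysis was possible because the clones of the 3 genotypes carry names and no shared replicate numbers. Depth is unknown, so only the spread between clones limits these values.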
